A study of Heterocephalus glaber with 2 samples.

Results

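The genes described here are interferon-stimulated genes, measured in the naked mole-rat (Heterocephalus glaber), a long-lived subterranean rodent, in dorsal skin taken at full thickness. A list of 39 symbols was matched, ignoring case, against the gene names of the deposited FPKM tables, and the locus with the highest mean was taken for each symbol. This found 25 of the 39 genes among 24514 loci, each on a single locus. A further 3, STAT2, IRF7 and USP18, carry no symbol in the tables and were recognised only through the NCBI gene number in the locus description. They are given beside the 25 and not counted with them. The other 11 symbols (IFIT1, MX1, MX2, OAS3, IFI27, IFI44, IFI44L, BST2, GBP2, HERC6 and SAMD9L) matched no locus by either route.

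Skin was compared at 19 years (old) and 4 years (young), to ask how its transcriptome differs with age. GEO holds 1 sample per age with 2 tables each, called old 1, old 2, young 1 and young 2 after the table numbers, and each table was treated as 1 library. The labels give no strain, sex, genotype or treatment for either age and do not state if both libraries of one age are from separate animals, so every p-value measures only the spread between libraries, which may be technical.

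Cells that sense viral or misplaced nucleic acid release interferons, which bind receptors on the same and neighbouring cells. The receptors act through JAK kinases, which activate the factor ISGF3, with STAT2 and IRF9 among its parts, and so switch on a broad set of genes. Those genes encode nucleic acid sensors, enzymes that block viral translation and replication, and the ubiquitin-like modifier ISG15. In skin, keratinocytes, fibroblasts, endothelial cells and immune cells can all respond. These roles are known mainly from human and mouse cells.

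The libraries stood apart by number as well as by age. Loci described by the RNA family database Rfam, mostly small structural RNAs, held 51.4% of the summed FPKM in old 1 and 47.0% in young 1, against 0.773% in old 2 and 0.593% in young 2. Mitochondrially encoded genes held 4.06% and 5.77% in old 1 and young 1 and 29.6% and 23.2% in old 2 and young 2. The number of reads behind the values is unknown. Ages were therefore compared within each number, old 1 over young 1 and old 2 over young 2, as well as over all 4 libraries. Markers of skin were present in every library, with 8 of 8 found keratinocyte and 8 of 8 fibroblast markers at 1 FPKM or more, and so were 5 of 5 found skeletal muscle markers. In such bulk samples, fewer cells of a type and less RNA per cell cannot be told apart.

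Interferon-stimulated genes were expressed at low to moderate levels at both ages, and as a group they did not lie to one side in old skin. Of the 25 genes, 17 had a mean of at least 1 FPKM over the 4 libraries and 8 had less. The highest mean, 15.2 FPKM, was that of IFI35, and 1 gene exceeded a mean of 10 FPKM. The threshold of 1 FPKM fell between OAS2, with a mean of 1.24 FPKM, and TRIM21, with 0.925 FPKM. In single libraries, 20 of the 25 genes reached 1 FPKM in old 1 and 16 in old 2, against 18 in young 1 and 17 in young 2. In every library 14 genes did so, and ISG20, RSAD2 and IFIT5 did in none. Summed over the 25 genes, the level was 96.7 and 99.95 FPKM in old 1 and old 2, against 96.3 and 102.6 FPKM in young 1 and young 2.

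**Figure D1:**
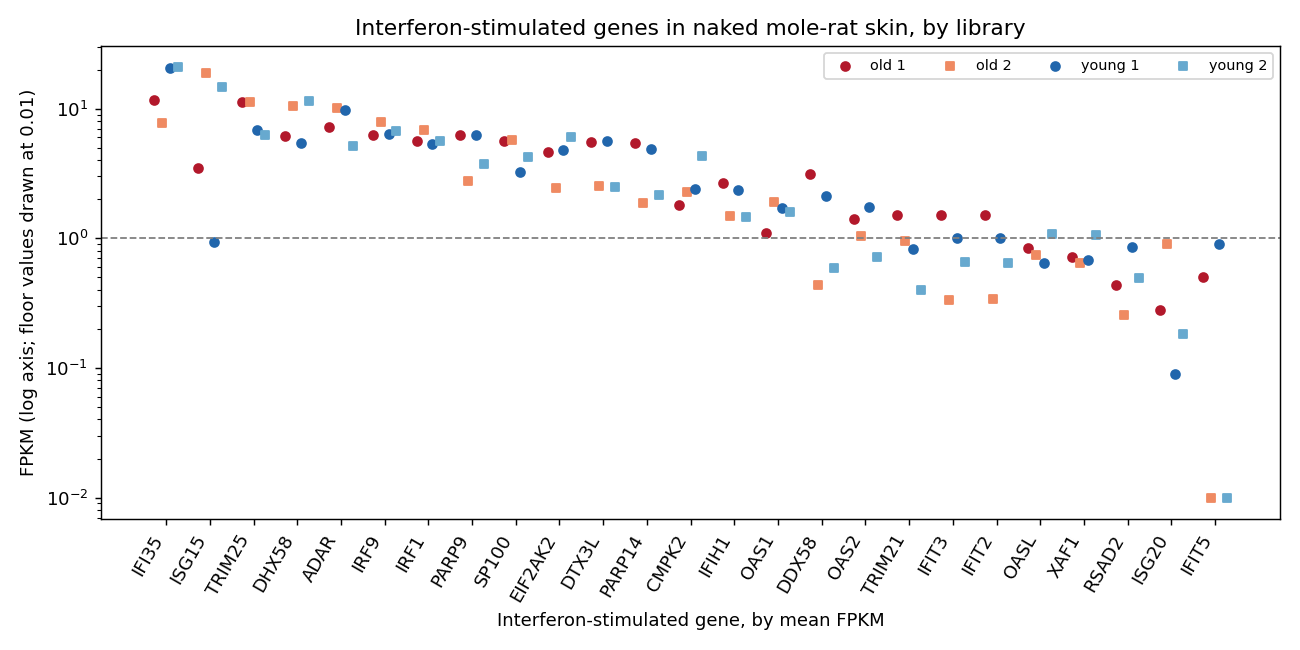
FPKM of the 25 interferon-stimulated genes in each library (log axis), ordered by their mean, with 1 point per library and a dashed line at 1 FPKM. IFI35 lies lower and TRIM25 higher in both old libraries, ISG15 differs more by library number than by age, and IFIT5 was at the floor of the tables in old 2 and young 2.

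The ages were compared by limma over the 12753 loci that averaged 1 FPKM or more, on log2(FPKM + 1), a scale that understates differences of low genes. Limma called 0 of the 17 genes higher and 0 lower in old skin at adjusted p 0.05, where 0% of all tested loci were called in either direction. None of the 17 had an unadjusted p under 0.05, against 0.612% of all tested loci, and the lowest, 0.0850, was that of IFI35. In simulated data that kept the gaps between numbers, this age-only fit called none of the planted log2 changes of 2 and 4. Its count of 0 therefore says nothing on whether these genes differ. With the library number as a further term, limma also called none of the 17, against 0.0235% of all tested loci, and its lowest adjusted p among them was 0.464. Smaller changes, such as those of the 17 genes, were not simulated, so the count of 0 from the fit with the number says nothing on them. That fit gave an unadjusted p under 0.05 for ISG15 and TRIM25, both higher in old skin, and for IFI35, lower in old skin, where 2.96% of all tested loci were higher and 3.61% lower at that level. For any single gene, the smallest two-sided p of an exact permutation test with 2 libraries per age is 0.33.

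Within the numbers, the 17 genes lay on both sides. Their median log2 ratio of old over young was 0.01 in number 1 and 0.02 in number 2, beside 0.07 and -0.06 over all tested loci. Of the 17, 5 were higher in old skin in both numbers (ISG15, TRIM25, SP100, IRF1 and IFIH1), or 29.4%, where 26.7% of all tested loci were. Another 3, or 17.6%, were lower in both (IFI35, EIF2AK2 and CMPK2), where 23.1% of all tested loci were. The remaining 9 had opposite signs in the 2 numbers. As deposited, the values of the ages did not overlap for 6 of the 17. Both old libraries lay above both young ones for TRIM25, SP100 and IRF1, or 17.6%, against 7.3% of all tested loci, and below them for IFI35, EIF2AK2 and CMPK2, or 17.6%, against 6.46%. IRF1 overlapped under both other scalings tried, and CMPK2 and EIF2AK2 under 1 each. On the log2(FPKM + 1) scale, 0 of the 17 differed by 2-fold or more the same way in both numbers, where 0.314% of all tested loci were higher and 0.557% lower by that rule.

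**Figure D2:**
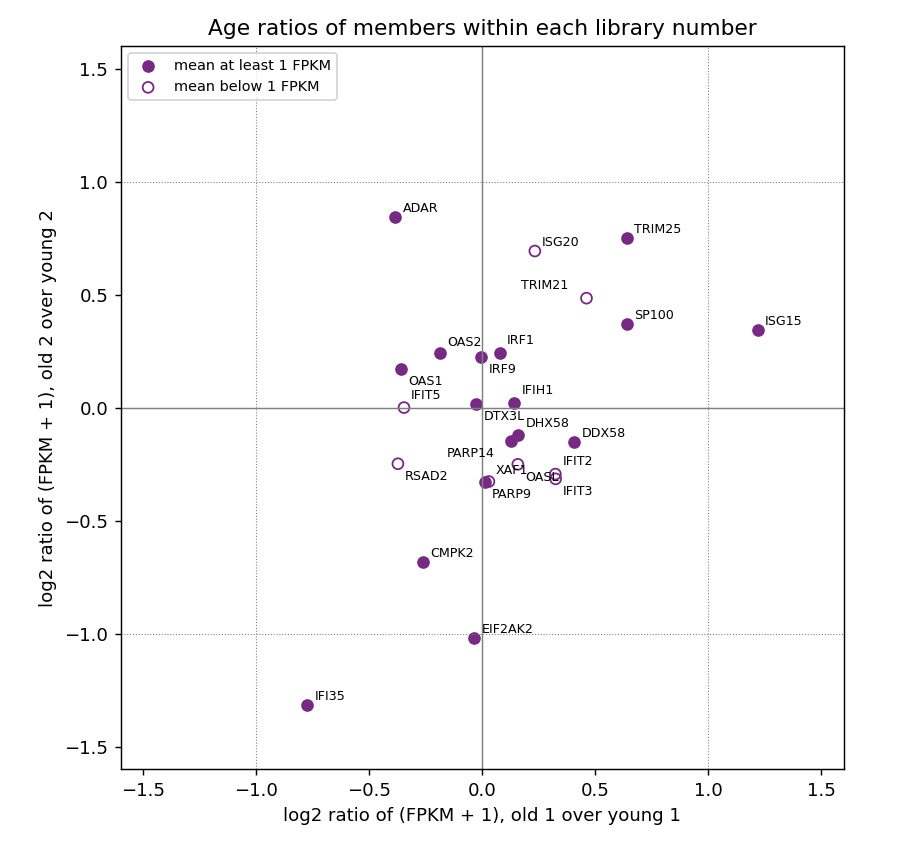
Log2 ratio of (FPKM + 1) of old 1 over young 1 (horizontal) and of old 2 over young 2 (vertical) for the 25 genes, with filled points for a mean of at least 1 FPKM and open points below it, and dotted lines at 2-fold. The points spread to all sides of the origin, with TRIM25 at 0.64 and 0.75 and IFI35 at -0.77 and -1.32.

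Among the tested genes whose ages did not overlap, IFI35 and TRIM25 had the widest log2 differences. IFI35 (locus MSTRG.68604), an interferon-induced leucine zipper protein, stood at 11.6 and 7.76 FPKM in old 1 and old 2, against 20.6 and 20.8 FPKM in young 1 and young 2. The young libraries were close to each other and both old ones lay below them, by 1.77-fold in number 1 and 2.68-fold in number 2. Limma gave a log2 difference of -1.05 ± 0.50 (SE), with a 95% interval of -2.29 to 0.20 and an adjusted p of 1.00. With the number in the model the interval was -1.74 to -0.35, with an adjusted p of 0.464 in limma. On simulated data, that fit made more false calls than its threshold allows. TRIM25 (MSTRG.69287), the ubiquitin ligase that assists the RNA sensor RIG-I, stood at 11.2 and 11.2 FPKM in old 1 and old 2, against 6.84 and 6.24 FPKM in young 1 and young 2. Both old libraries were above the young ones, by 1.64-fold and 1.79-fold, and neither age differed much between its numbers. Its log2 difference was 0.69 ± 0.46 (SE) in limma, with a 95% interval of -0.47 to 1.85 and an adjusted p of 1.00. With the number in the model the interval was 0.07 to 1.32, with an adjusted p of 0.712 in limma. TRIM21, a cytosolic antibody receptor of the same ligase family, was low, at 1.51 and 0.960 FPKM in old skin and 0.826 and 0.402 FPKM in young skin. It was likewise higher in both old libraries, although its mean was too low for it to enter the test.

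Among the other induced proteins, SP100 (MSTRG.88387), a component of PML nuclear bodies, stood at 5.63 and 5.78 FPKM in old 1 and old 2, against 3.26 and 4.26 FPKM in young 1 and young 2. Its lowest old value was above its highest young value, with a log2 difference of 0.50 ± 0.47 (SE) and an adjusted p of 1.00 in limma. XAF1, which antagonises the apoptosis inhibitor XIAP, stayed near the threshold in every library, at 0.713 and 0.640 FPKM in old skin and 0.679 and 1.06 FPKM in young skin, and its ages overlapped.

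ISG15 (MSTRG.79440), the ubiquitin-like protein that is joined to newly made proteins after interferon, had the widest range of the 17 genes. It stood at 3.49 and 18.9 FPKM in old 1 and old 2, against 0.929 and 14.7 FPKM in young 1 and young 2. The old value was higher within each number, by 3.75-fold and 1.29-fold, but old 1 lay far below young 2, so the ages overlapped. The gap between the numbers was wider than that between the ages, with log2 ratios of number 2 over number 1 of 2.15 in old skin and 3.03 in young skin. Its log2 difference between ages was 0.78 ± 1.21 (SE) in limma, with a 95% interval of -2.24 to 3.80. The difference was 1.86 without old 1 and 2.29 without young 2, but -0.30 without old 2 and -0.73 without young 1. Leaving out 1 library unbalances the numbers against the ages, so these values also carry the gap between the numbers. With the number in the model the interval was 0.07 to 1.49, with an adjusted p of 0.712 in limma. Macrophage and monocyte markers also stood higher in number 2, with 11 of 11 found markers at 1 FPKM or more in every library and a summed level of 203 and 868 FPKM in old 1 and old 2 and of 238 and 541 FPKM in young 1 and young 2. Their part in the ISG15 values was not tested. USP18, the protease that removes ISG15 and restrains the type I interferon receptor, was low at both ages, at 1.49 and 0.512 FPKM in old skin and 1.52 and 1.11 FPKM in young skin. The genes that attach ISG15 were low too. UBE2L6, the conjugating enzyme, stood at 4.72 and 4.17 FPKM in old skin and 3.59 and 3.16 FPKM in young skin, and UBA7, the activating enzyme, at 2.02 and 1.98 FPKM in old skin and 2.59 and 4.15 FPKM in young skin. The ages of these enzymes did not overlap as deposited, UBE2L6 being higher and UBA7 lower in old skin. Without structural RNA and mitochondrial loci, 0 of 3 ISG15 conjugation genes were higher in old skin without overlap. HERC5, a ligase for ISG15 in human cells, stood at 2.18 and 0.565 FPKM in old skin and 1.48 and 0.625 FPKM in young skin and followed the library number.

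Of the transcription factors of the response, IRF1, STAT2 and the locus that holds IRF9 were close between the ages within each number. IRF1 (MSTRG.8924), a factor induced by interferon gamma, stood at 5.68 and 6.87 FPKM in old 1 and old 2, against 5.33 and 5.65 FPKM in young 1 and young 2. The old values were higher by 1.07-fold and 1.22-fold, and the log2 difference was 0.16 ± 0.47 (SE) in limma. IRF9, the DNA-binding part of ISGF3, shares its locus MSTRG.80086 with the ubiquitin ligase gene RNF31, which overlaps it in the RefSeq gene table, so its value cannot be separated from that neighbour. The joined locus stood at 6.31 and 7.97 FPKM in old skin and 6.33 and 6.68 FPKM in young skin, and its ages overlapped. STAT2, the other dedicated part of ISGF3, stood at 5.55 and 2.41 FPKM in old skin and 6.01 and 2.23 FPKM in young skin. It followed the number and not the age. IRF7, which amplifies type I interferon production, stood at 1.13 and 2.63 FPKM in old skin and 1.92 and 2.98 FPKM in young skin. It was lower within both numbers in old skin, by 1.70-fold in number 1 and 1.13-fold in number 2, and its ages overlapped.

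The sensors of double-stranded RNA differed more between numbers than between ages. DDX58 (MSTRG.13970), which encodes RIG-I, stood at 3.13 and 0.433 FPKM in old 1 and old 2, against 2.11 and 0.594 FPKM in young 1 and young 2. IFIH1 (MSTRG.5954), which encodes MDA5, stood at 2.69 and 1.49 FPKM in old skin and 2.34 and 1.46 FPKM in young skin. Both were high in number 1 and low in number 2, and the ages of both overlapped, with log2 differences of 0.13 ± 0.75 (SE) and 0.08 ± 0.54 (SE) in limma. DHX58, which encodes LGP2, a regulator of the other sensors, shares locus MSTRG.68661 with the acetyltransferase gene KAT2A, and the joined locus stood at 6.18 and 10.4 FPKM in old skin and 5.43 and 11.4 FPKM in young skin. This locus ran the other way, higher in number 2, and how much of it came from DHX58 cannot be told.

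EIF2AK2 (MSTRG.16427), the kinase PKR that halts translation on double-stranded RNA, stood at 4.65 and 2.46 FPKM in old 1 and old 2, against 4.79 and 6.01 FPKM in young 1 and young 2. The ages did not overlap, but the old libraries differed from the young ones by 1.03-fold in number 1 and by 2.45-fold in number 2. Limma gave a log2 difference of -0.53 ± 0.52 (SE), with a 95% interval of -1.83 to 0.77. Without old 2 it was -0.17, and without young 2 it was -0.39. ADAR (MSTRG.96587), which edits adenosine to inosine in double-stranded RNA, stood at 7.25 and 10.0 FPKM in old skin and 9.77 and 5.16 FPKM in young skin. Its direction was opposite in the 2 numbers, lower in old skin in number 1 and higher in number 2.

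**Figure D3:**
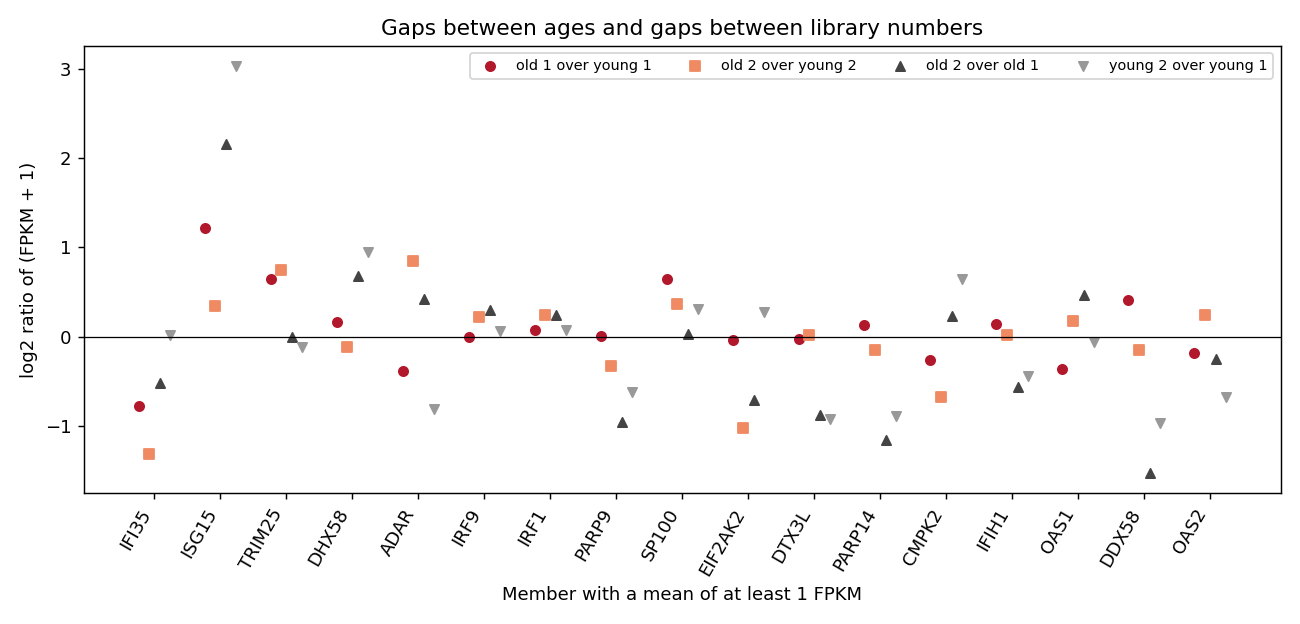
Log2 ratios of (FPKM + 1) for the 17 genes with a mean of at least 1 FPKM, between ages within each number (old 1 over young 1, old 2 over young 2) and between numbers within each age (old 2 over old 1, young 2 over young 1). ISG15, DHX58, DDX58, IFIH1, PARP9, DTX3L, PARP14 and OAS2 have wider gaps between the numbers than between the ages.

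Over the 17 genes, both age gaps were smaller than both number gaps for 8, or 47.1%, where 51.7% of all tested loci behaved so. At both ages 7 of the 17 were higher in number 1 and 6 were higher in number 2, where 50.4% and 31.5% of all tested loci were. ISG15 and the joined DHX58 locus were among those higher in number 2.

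The clearest case was the ADP-ribosylation group, PARP9, DTX3L and PARP14. PARP9 and the ubiquitin ligase DTX3L form a complex in the interferon and DNA damage responses, and PARP14 is a mono-ADP-ribosyltransferase. PARP9 and DTX3L are adjacent and overlapping in the RefSeq gene table, and 2 genes separate DTX3L from PARP14 there. PARP9 (MSTRG.100396) stood at 6.31 and 2.76 FPKM in old 1 and old 2, against 6.26 and 3.73 FPKM in young 1 and young 2. DTX3L (MSTRG.100398) stood at 5.51 and 2.53 FPKM in old skin and 5.63 and 2.49 FPKM in young skin. PARP14 (MSTRG.100405) stood at 5.42 and 1.86 FPKM in old skin and 4.87 and 2.17 FPKM in young skin. All 3 were higher in number 1 at both ages and lay close between the ages. PARP9 had a log2 ratio of old over young of 0.0098 in number 1 and -0.33 in number 2, and after median-of-ratios scaling it was lower in both, at -0.058 and -0.27. For DTX3L the log2 ratio of old over young was -0.03 in number 1 and 0.02 in number 2. In the fit that also held the number, limma placed its log2 difference at -0.01 with a 95% interval of -0.61 to 0.59, and that of PARP14 at -0.01 with an interval of -0.62 to 0.60.

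The 2'-5' oligoadenylate synthases, which make the messenger that activates the nuclease RNase L, were near 1 FPKM at both ages. OAS1 (MSTRG.28548) stood at 1.11 and 1.92 FPKM in old 1 and old 2, against 1.70 and 1.59 FPKM in young 1 and young 2. OAS2 (MSTRG.28545) stood at 1.42 and 1.04 FPKM in old skin and 1.76 and 0.724 FPKM in young skin. Both were lower in old skin in number 1 and higher in number 2, with overlapping ages. OASL, a related protein described in the tables as synthase-like protein 1, stood at 0.835 and 0.745 FPKM in old skin and 0.645 and 1.08 FPKM in young skin. Members of this family resemble each other in sequence, so reads may have been shared between them.

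IFIT proteins bind viral RNA ends and block its translation, and the 3 found here were low. IFIT2 (MSTRG.14120) stood at 1.51 and 0.343 FPKM in old 1 and old 2, against 1.00 and 0.647 FPKM in young 1 and young 2. IFIT3 (MSTRG.14122) stood at 1.52 and 0.333 FPKM in old skin and 1.01 and 0.658 FPKM in young skin. The ratio of IFIT3 to IFIT2 was 1.01, 0.971, 1.01 and 1.02 in old 1, old 2, young 1 and young 2, and their gene bodies overlap in the RefSeq gene table. These loci may therefore share reads and were not read as separate measurements. IFIT5 stood at 0.499 FPKM in old 1 and 0.906 FPKM in young 1 and was at the table floor of 0.0001 FPKM in old 2 and young 2. In all 3, the spread of the ages overlapped.

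Among enzymes that act on nucleotides or RNA, CMPK2 and RSAD2 are neighbours in the RefSeq gene table and were both lower in old skin. CMPK2 (MSTRG.89115), a mitochondrial nucleotide kinase, stood at 1.82 and 2.30 FPKM in old 1 and old 2, against 2.38 and 4.30 FPKM in young 1 and young 2. RSAD2 (MSTRG.89114), or viperin, which makes a chain-terminating nucleotide, stood at 0.436 and 0.255 FPKM in old skin and 0.860 and 0.490 FPKM in young skin. For each gene both old values were below both young values, by 1.31-fold and 1.87-fold for CMPK2 and by 1.97-fold and 1.93-fold for RSAD2. The log2 difference of CMPK2 was -0.47 ± 0.53 (SE) in limma, with an adjusted p of 1.00, and -0.15 without young 2. ISG20 (MSTRG.50252), an exonuclease of single-stranded RNA, was lower still in level, at 0.281 and 0.911 FPKM in old skin and 0.0900 and 0.182 FPKM in young skin. It was higher in old skin by 3.12-fold in number 1 and 4.996-fold in number 2. The counting error of such ratios may be large at values under 1 FPKM and cannot be given, since the number of reads is unknown, and neither RSAD2 nor ISG20 entered the test. In limma with no filter on low values, their unadjusted p was 0.299 and 0.140.

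Loci without a listed symbol that the tables describe as relatives of listed genes were also examined, chosen after their values were seen. A locus described as interferon-induced GTP-binding protein Mx2-like stood at 6.87 and 4.07 FPKM in old 1 and old 2, against 4.86 and 4.53 FPKM in young 1 and young 2, with overlapping ages. A locus described as interferon-induced GTP-binding protein Mx2, which carries no symbol and so was not counted as MX2, stood at 0.425 and 0.290 FPKM in old skin and 0.500 and 0.525 FPKM in young skin. Both old values were below both young ones, and its mean of 0.435 FPKM kept it out of the test. A locus described as interferon-induced protein with tetratricopeptide repeats 1B stood at 5.38 and 2.13 FPKM in old skin and 4.25 and 2.18 FPKM in young skin and followed the number. A locus described as interferon alpha-inducible protein 27-like protein 2 was far higher than any of the 25 genes, at 29.7 and 222 FPKM in old skin and 35.8 and 201 FPKM in young skin, again following the number. A locus described as interferon-induced transmembrane proteins 2-like and 3 stood at 12.6 and 56.6 FPKM in old skin and 17.2 and 75.3 FPKM in young skin, lower in old skin within both numbers and with overlapping ages. Another, described as interferon-induced transmembrane protein 3, stood at 2.07 and 12.3 FPKM in old skin and 3.54 and 1.58 FPKM in young skin. It was lower in old skin in number 1 and higher in number 2, and its ages overlapped. Of these loci, limma called none of the tested ones in either fit.

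The rest of the pathway was read from lists of 125 symbols, which matched 95 loci, 82 of them with a mean of at least 1 FPKM. Limma called 0 of the 82 higher and 0 lower at adjusted p 0.05, 0 had an unadjusted p under 0.05, and adding the number to the model left the count of calls at 0. In both numbers 22 of the 82 were higher in old skin, or 26.8%, and 27 were lower, or 32.9%, with medians of 0.01 in number 1 and -0.08 in number 2. Of all tested loci, 26.7% were higher and 23.1% lower in both numbers.

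**Figure D4:**
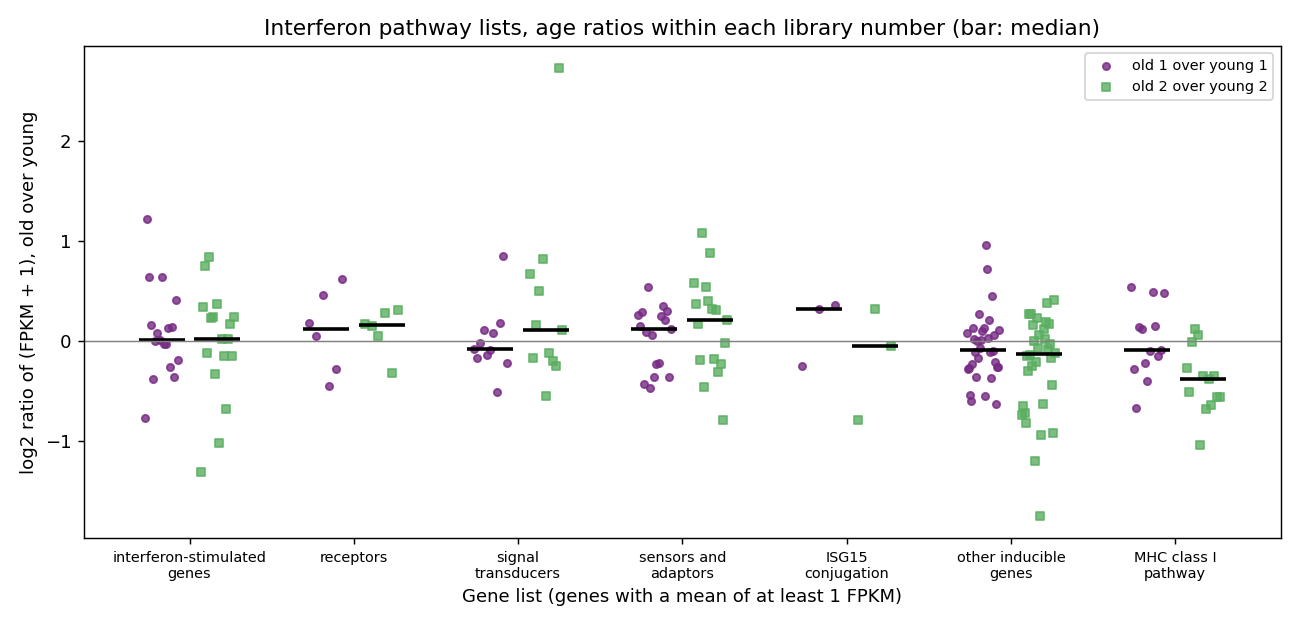
Log2 ratios of (FPKM + 1) of old over young within number 1 and number 2 for the interferon-stimulated genes and 6 lists of other pathway genes, with 1 point per gene and a bar at the median. Medians run from -0.38 (MHC class I pathway, number 2) to 0.32 (ISG15 conjugation, number 1).

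Interferons themselves were at or near the floor. IFNG, the type II interferon, was at the floor in all 4 libraries, as were loci described as interferon beta 1, interferon alpha-4-like and interferon lambda-2. IFNK, a type I interferon made by keratinocytes, stood at 0.734 FPKM in old 1 and 0.340 FPKM in young 1 and was at the floor in old 2 and young 2. All 6 receptor genes were expressed. Of them 4 were higher in old skin in both numbers, or 66.7%, and 1, IFNLR1, was lower in both, or 16.7%. Of all tested loci, 26.7% were higher and 23.1% lower in both. The highest were IL10RB, a shared chain of the interferon lambda and interleukin 10 receptors, at 33.8 and 41.8 FPKM in old skin and 21.6 and 33.6 FPKM in young skin, and IFNGR2, a chain of the interferon gamma receptor, at 15.0 and 19.0 FPKM in old skin and 20.9 and 15.5 FPKM in young skin. As deposited, the ages of IL10RB did not overlap and those of IFNGR2 did. For IL10RB the margin was 33.8 FPKM in old 1 against 33.6 FPKM in young 2. Under both other scalings, 3 of the 6 receptor genes were higher in both numbers and 1 was lower. After median-of-ratios scaling, 0 receptor genes were higher in old skin without overlap.

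Of 11 signal transducers, 2 were higher in both numbers, or 18.2%, and 3 lower, or 27.3%. Of all tested loci, 26.7% were higher and 23.1% lower. STAT3, which serves interleukin 6 family cytokines more than interferons, stood at 26.7 and 73.6 FPKM in old skin and 29.6 and 41.2 FPKM in young skin, and JAK1, the kinase shared by all interferon receptors, at 30.0 and 42.6 FPKM in old skin and 31.8 and 26.4 FPKM in young skin. Both differed in sign between the numbers. SOCS3, an inhibitor of JAK signalling that was picked after its values were seen, stood at 3.86 and 23.1 FPKM in old skin and 1.70 and 2.63 FPKM in young skin. Its log2 difference was 1.79 with the number in the model, with an adjusted p of 0.363 in limma. Of 17 sensors and adaptors, 7 were higher in both numbers, or 41.2%, where 26.7% of all tested loci were. Another 3, or 17.6%, were lower in both, where 23.1% of all tested loci were. The most abundant were RNASEH2C and IRF3. RNASEH2C, a subunit of ribonuclease H2, stood at 13.0 and 40.9 FPKM in old skin and 10.4 and 71.7 FPKM in young skin. IRF3, the factor that starts interferon transcription, stood at 10.2 and 22.2 FPKM in old skin and 9.81 and 16.6 FPKM in young skin.

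Of 32 other interferon-inducible genes with a mean of at least 1 FPKM, 0 passed the test. In both numbers 12 were lower in old skin, or 37.5%, against 23.1% of all tested loci, and 6 were higher, or 18.8%, against 26.7%. Their median ratio of old over young (log2) stood at -0.09 for number 1 and -0.13 for number 2, and at -0.16 and 0.042 without structural RNA and mitochondrial loci. As deposited, both old libraries lay below both young ones for 7, or 21.9%, against 6.46% of all tested loci, and above them for 0. Those below numbered 5 with median-of-ratios scaling and 6 without structural RNA and mitochondrial loci. The most abundant were LGALS3BP, a secreted scavenger-receptor protein, at 71.4 and 51.2 FPKM in old skin and 105 and 175 FPKM in young skin, and IFI30, a lysosomal thiol reductase used in antigen processing, at 29.5 and 90.1 FPKM in old skin and 27.9 and 151 FPKM in young skin. LGALS3BP did not overlap between the ages and IFI30 did. In the MHC class I pathway, 7 of 13 were lower in both numbers, or 53.8%, and 2 higher, or 15.4%, with medians of -0.10 and -0.38. Of all tested loci, 23.1% were lower and 26.7% higher. Under both other scalings 6 of the 13 were lower and 2 higher. The most abundant genes of this list were the chaperones PDIA3 and CALR. PDIA3 stood at 52.3 and 46.1 FPKM in old skin and 37.2 and 68.5 FPKM in young skin. CALR stood at 44.9 and 35.6 FPKM in old skin and 48.1 and 53.2 FPKM in young skin. As deposited, the ages overlapped for PDIA3 and did not for CALR, which was lower in old skin. Genes of this list lower without overlap numbered 3 as deposited and 1 with median-of-ratios scaling. Without structural RNA and mitochondrial loci, 2 were lower and 2 higher without overlap. The summed dendritic and Langerhans cell markers lay lower in old skin beside these lists. Of 5 found markers 3 were tested, and 2 of them were lower without overlap, where 6.46% of all tested loci were. The remaining 1 was split between the numbers. At 1 FPKM or more were 2 markers in each old library and 3 in each young one. The summed level was 8.34 and 13.6 FPKM in old 1 and old 2 against 19.4 and 28.0 FPKM in young 1 and young 2. CD207, the langerin of Langerhans cells, stood at 6.29 and 5.71 FPKM in old skin and 12.4 and 20.0 FPKM in young skin. Fibroblast markers were lower in both numbers for 6 of 8 and higher for 0, with a summed level of 1065 and 721 FPKM in old skin and 895 and 1111 FPKM in young skin. Endothelial markers were lower in both for 4 of 7 and higher for 0. Skeletal muscle markers were higher in both for 4 of 5, with a summed level of 3225 and 2999 FPKM in old skin and 2551 and 2374 FPKM in young skin. Of all tested loci, 23.1% were lower and 26.7% higher in both numbers. Under both other scalings, fibroblast markers were lower for 6 and higher for 1, and endothelial markers were lower for 2. The part of any of these cells in the interferon-inducible and MHC class I values was not tested.

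Other marker lists were read beside the interferon genes as well. Plasmacytoid dendritic cells, a main source of type I interferon, could not be followed, because 2 of their 6 listed markers were found, SPIB at the floor in all 4 libraries and TCF4, which other cells also express. The 7 found of 10 T and NK cell markers summed to 16.1 and 24.5 FPKM in old skin and 12.6 and 32.4 FPKM in young skin, and 7 endothelial markers to 93.1 and 75.4 FPKM in old skin and 115 and 79.9 FPKM in young skin. Both sums overlapped between the ages. The 6 neutrophil markers summed to 15.2 and 91.9 FPKM in old skin and 5.54 and 30.3 FPKM in young skin. Of them 4 had a mean below 1 FPKM, with ELANE at the floor in 3 of 4 libraries. The sum was higher in old skin within each number, but old 1 lay below young 2, so the ages overlapped. The part of neutrophils in the interferon genes that were higher in old skin was not tested.

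In the gene ontology terms that the tables attach to each locus, 7 of the 25 genes carry the term defense response to virus, beside 50 of all 24514 loci, or 0.204%. That share follows from how the genes were listed and is given as a description of the annotation.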

How the data were processed

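Per the labels, total RNA with an RNA integrity number above 7.5 was depleted of ribosomal RNA and sequenced as paired reads of 150 bases. TopHat2, Bowtie2, FastQC and cutadapt are listed by the submitters' processing notes. Which genome build, annotation and quantifier were used is not given in the sources used here. Per the file headers, FPKM values were deposited for 24514 loci in each of 4 tables with a floor of 0.0001. Between any 2 libraries, 0 loci above the floor had equal values, and the number of reads is unknown, so no counting error is given.

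Members and lists were chosen with earlier results of these data known. For the pathway and marker lists, symbols absent from the tables were sought by NCBI gene number in the RefSeq gene table of H.glaber_assembly_v1.0, used for names and gene neighbours only. Ages were compared with limma 3.58.1 in R 4.3.3 (age as the single term, mean-variance trend, two-sided, Benjamini-Hochberg over 12753 loci) on log2(FPKM + 1), and as log2 ratios within each number. Simulated data kept the gaps between numbers and held planted log2 changes of 2 and 4. The age-only fit called none of these, whereas the fit with the number called nearly all, together with more false calls than its threshold allows. Counts of 0 from the age-only fit therefore carry no information on the absence of a difference. Changes smaller than those planted were not simulated, so counts of 0 from the fit with the number carry none on differences of that size. With 2 libraries per age, each value is printed and no SD. Every member found is given, and in other lists genes past adjusted p 0.05 or 2-fold apart the same way in both numbers, of which there were 0, and otherwise the 2 with the highest mean. Any other gene or marker named falls outside that rule, whether or not it is marked as chosen after its values were seen. HERC5, IFNLR1, CXCL9, CXCL10 and CD207 are among them. Other settings were a pseudocount of 0.1, other filters, scalings and moderation, the number as a term, and each library left out. Tables used numpy 2.4.6 and pandas 2.3.3 in Python 3.11.15, and plots matplotlib 3.10.9.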

Additional observations from a re-analysis of the deposited data

How the results depend on the processing

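No setting called any of the 17 tested interferon-stimulated genes, but the settings without the number in the model, like the age-only fit itself, say nothing on stability, since that fit called no planted change in simulated data. Over 211 combinations of gene and setting the lowest adjusted p was 0.464 (limma), and 190 kept the direction while 21 changed sign. Most of the changes came from leaving out 1 library, which unbalances numbers against ages. Over the 4 fits that each left out 1 library, the log2 difference ran from -0.73 to 2.29 for ISG15, -0.33 to 0.14 for OAS1, -0.31 to 0.37 for OAS2, -0.038 to 0.26 for IRF9, -0.64 to 0.89 for DDX58, -0.20 to 0.36 for IFIH1, -0.46 to 0.50 for DHX58, -0.17 to 0.63 for ADAR, -0.64 to 0.32 for PARP9, -0.59 to 0.57 for PARP14 and -0.47 to 0.46 for DTX3L. IFI35 (-1.31 to -0.78), TRIM25 (0.64 to 0.75), SP100 (0.35 to 0.66), IRF1 (0.04 to 0.28), EIF2AK2 (-0.88 to -0.17) and CMPK2 (-0.80 to -0.15) kept their sign. The ages of these genes did not overlap, so leaving out 1 library could not change it, and the kept sign adds nothing. The median over all tested loci itself moved to between -0.17 and 0.17 in those fits.

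The libraries share only a number, which the labels do not tie to an animal or day. The gaps between numbers correlated at 0.823 over loci between the ages, and with the library number as a replicate block 0 members were called higher and 0 lower. With that block and without Rfam-described and mitochondrial loci, PARP14 and DTX3L changed sign to 0.031 and 0.040. A fold of 1.5 in place of 2 found 1 member higher in both numbers, TRIM25, and 1 lower, IFI35, and 1 other pathway gene higher, SOCS3, which a pseudocount of 0.1 at 2-fold also found (1 gene). Median-of-ratios scaling gave 5 members higher and 4 lower in both numbers, and leaving out structural RNA and mitochondrial loci gave 6 and 4, against 5 and 3 as deposited. Of all tested loci, 25.8% were higher and 25.2% lower in both numbers with the scaling, and 30.3% and 21.9% without those loci. Under each of these settings, PARP9 was lower in both numbers. Members whose ages did not overlap numbered 2 higher and 2 lower under each, against 3 and 3, with IRF1 lost under both, CMPK2 under the scaling and EIF2AK2 without those loci. Without overlap, 6.73% of all tested loci lay higher and 7.23% lower with the scaling, and 7.86% and 4.56% without those loci. The other pathway genes higher and lower in both numbered 18 and 25 with the scaling and 23 and 24 without those loci, against 22 and 27. Demanding a mean of 5 FPKM left 7 of the 17 genes. Each symbol had 1 locus, so summing loci changed nothing. Settings for the other pathway genes' ratios and for overlap were chosen after seeing the data.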

Other observations

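A locus described as interferon alpha-inducible protein 27, mitochondrial-like (MSTRG.9662) stood at 0.170 and 0.117 FPKM in old 1 and old 2, against 1.93 and 1.28 FPKM in young 1 and young 2. It was lower in old skin by 11.3-fold in number 1 and 10.9-fold in number 2. Its mean of 0.876 FPKM kept it out of the test, and it was chosen after its values were seen. The related locus described as interferon alpha-inducible protein 27-like protein 2B stood at 3.66 and 4.58 FPKM in old skin and 4.41 and 7.96 FPKM in young skin.

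Besides LGALS3BP, 6 other interferon-inducible genes had both old values below both young ones as deposited, and they are given because of that direction. Such genes numbered 5 with median-of-ratios scaling and 6 without structural RNA and mitochondrial loci. The share of all tested loci was 7.23% and 4.56% there, against 6.46% as deposited. GBP6, a guanylate-binding protein, stood at 3.72 and 3.30 FPKM in old skin and 5.86 and 6.58 FPKM in young skin. GBP1 stood at 2.20 and 1.28 FPKM in old skin and 2.90 and 2.58 FPKM in young skin, and GBP5 at 0.883 and 1.26 FPKM in old skin and 1.27 and 2.74 FPKM in young skin. CIITA, the master regulator of MHC class II genes, stood at 1.56 and 1.37 FPKM in old skin and 2.07 and 3.50 FPKM in young skin, and IRF8, a factor of myeloid and dendritic cells, at 1.92 and 3.42 FPKM in old skin and 3.54 and 5.001 FPKM in young skin. EPSTI1, an interferon-inducible epithelial-stromal interaction gene, stood at 1.36 and 2.24 FPKM in old skin and 2.59 and 2.59 FPKM in young skin. Of the chemokine genes, CXCL10 was at the floor in both old libraries and at 0.224 and 0.222 FPKM in young 1 and young 2, while CXCL9 stood at 0.0244 and 0.227 FPKM in old skin and 0.0215 and 0.149 FPKM in young skin, higher in old skin within both numbers. Limma called none of the GBP genes, CIITA, IRF8 or EPSTI1, and the chemokine genes, with means under 1 FPKM, were not in the test. The summed dendritic and Langerhans cell markers lay lower in the same libraries, and their part was not tested.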
